A study of Mus musculus with 22 samples.

Results

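Vcam1, Itgb3, Itgav, Itgb6, Itga5, Itgb1, Cd44 and Cd24a encode surface integrins and adhesion molecules that are used to grade states of the epithelial-mesenchymal transition in skin tumours. They were taken as the rows of the deposited table that carry these 8 gene names, out of 49671 genes, and followed through 22 bulk RNA-seq libraries in 11 groups of 2. The cells were lines derived from mouse primary tumours, and every group, controls included, carried the same labelled alleles: Lgr5CreER, KrasLSL-G12D, p53fl/fl and the reporter Rosa26-YFP+/+. Besides a control line, 4 lines had Pitx1, Klf5, Nfatc1 or Creb3l1 knocked out with CRISPR/Cas9 (named Pitx1KO, Klf5KO, Nfatc1KO and Creb3l1KO here as in the labels). Living mCherry+ YFP+ single cells were sorted by surface EPCAM, an epithelial adhesion molecule, into EPCAM+ and EPCAM- fractions at day 8 in all 5 lines, and EPCAM+ control cells were also taken at day 0. The labels name no treatment beginning at day 0 and give no animal age. Nothing in them states that paired libraries of 1 group are separate cultures, animals or knockout clones, and p-values therefore measure only the spread between these libraries, which may be technical.

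Integrins are pairs of an alpha and a beta subunit that bind extracellular matrix on the outside and the actin cytoskeleton on the inside. Itgav can pair with several beta subunits, among them Itgb1, Itgb3, Itgb5, Itgb6 and Itgb8, and the partner sets the ligand: with Itgb6 the pair is an epithelial receptor that activates latent TGF-beta, and with Itgb3 it is a vitronectin receptor. Itga5 pairs with Itgb1 to form the main fibronectin receptor. Vcam1 is an immunoglobulin-family ligand of other integrins, Cd44 is the hyaluronan receptor, and Cd24a is a small glycosylated protein anchored to the membrane by lipid.

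Values are read counts per gene that the authors scaled to totals of 20007331 to 20014236 per library, and they are called units here. A library held 6054929 to 9882696 reads in genes as recovered from the steps in its values (median 7804837), so that 1 read was 2.02 to 3.30 units, and it detected 20184 to 22616 genes. Epcam mRNA separated the sorted fractions, with 3702 to 7320 units in the 10 EPCAM+ libraries of day 8 and 90 to 735 in the 10 EPCAM- libraries. Of the targeted genes, Pitx1 and Nfatc1 mRNA was low in the lines labelled for them. Klf5 mRNA was not (means of 2104 units in Klf5KO and 2159 in control EPCAM+ cells), so its mRNA does not check the label. Creb3l1 had 0 units in both control EPCAM+ libraries of day 8. In EPCAM- libraries it had 137 and 26 units in the control line, 6 and 0 in Creb3l1KO and 0 to 8 in the other knockout lines, so low Creb3l1 was not particular to Creb3l1KO. Of the epithelial markers Epcam, Cdh1, Krt5, Krt8, Krt14, Krt18 and Krt19, the sum was 32806 to 57447 units in EPCAM+ and 15833 to 26213 in EPCAM- libraries of day 8. That sum includes Epcam, the sorted marker. Krt14 did not pass the test between the fractions described below (log2 difference -0.55, limma adjusted p = 0.55).

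All 8 genes passed the filter for testing (at least 10 units in at least 2 libraries), as did 19569 genes in all. Per kb of annotated exon, their levels spanned a wide range. The median over the 22 libraries was highest for Itgb1 at 5681 units per kb, followed by Cd44 at 3601, Cd24a at 1842 and Itgav at 1664. Far lower were Itga5 at 256 units per kb, Itgb3 at 71.7, Itgb6 at 46.1 and Vcam1 at 6.99. Per kb of the longest transcript the order was the same, but levels were higher, at 2534 for Itgav, 68.2 for Itgb6 and 15.2 for Vcam1. Vcam1 rested on 6 to 40 reads per library and Itgb6 in EPCAM- libraries on 10 to 29, so counting error is large for both, while Itgb1, Cd44 and Itgav had at least 2942 reads in every library. The plot of all library values shows each gene by line and fraction.

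**Figure D1:**
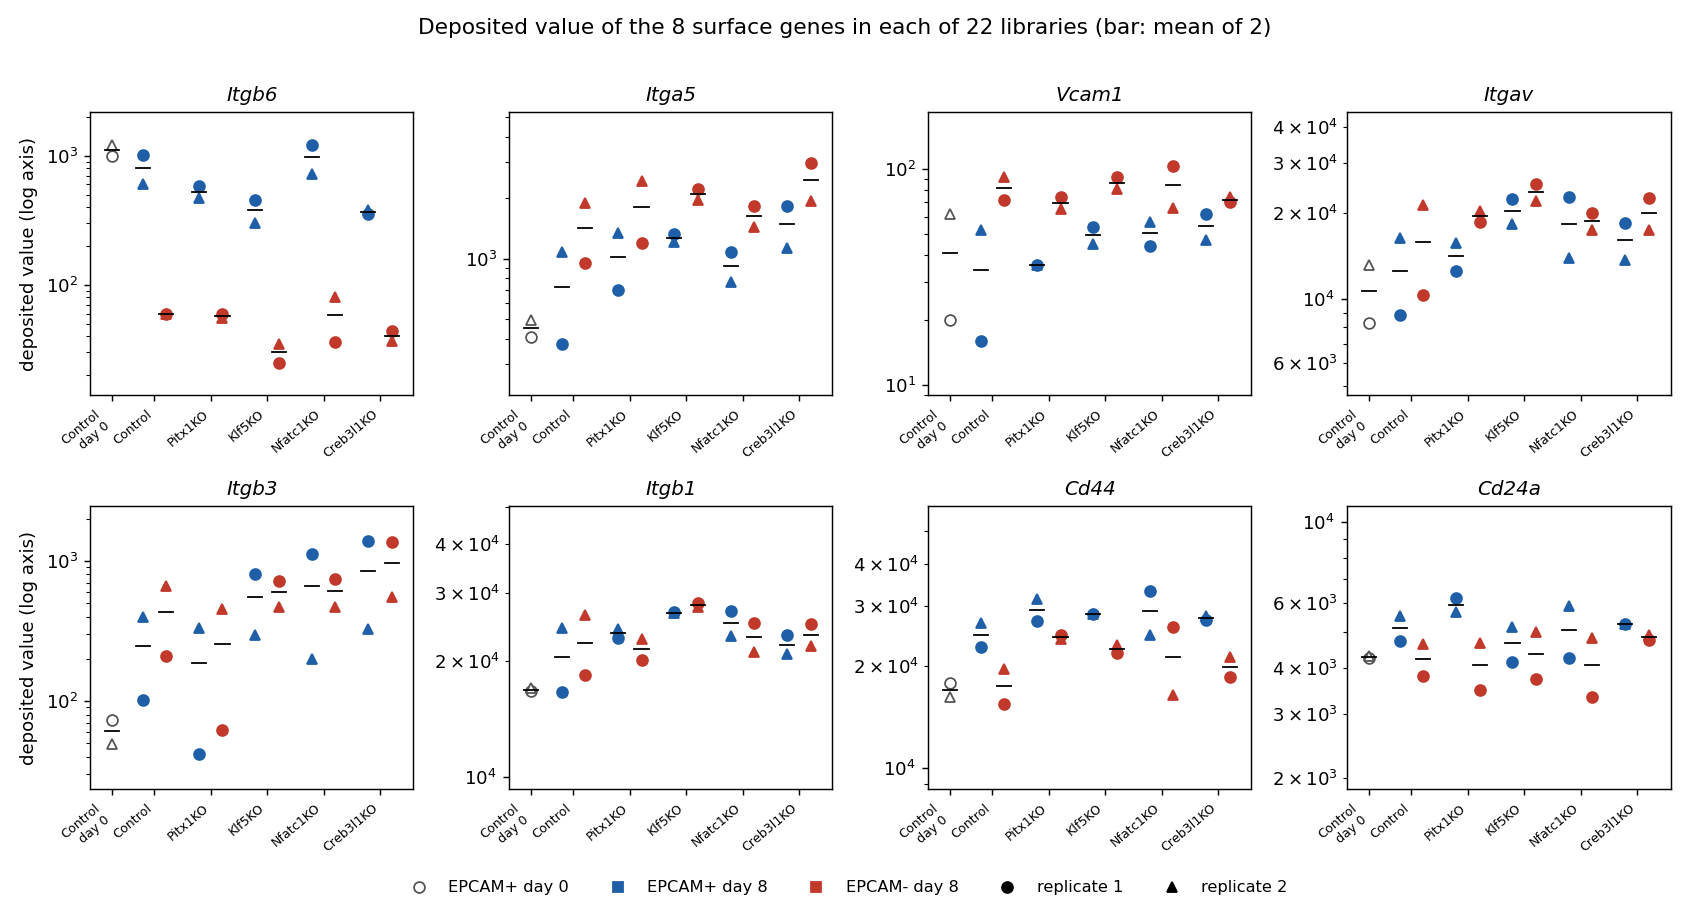
Deposited value (units, log axis) of each gene in the 22 libraries by line, with EPCAM+ libraries in blue, EPCAM- libraries in red, day 0 in open grey, circles for replicate 1, triangles for replicate 2 and bars for the mean of 2. Itgb6 fell from 303 to 1218 units in EPCAM+ libraries of day 8 to 25 to 80 in EPCAM- libraries, and the 2 libraries of a group lay far apart for Itgb3.

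Averaged over the 5 lines at day 8, EPCAM- cells had 11.6-fold less Itgb6 mRNA and 1.33-fold less Cd44 mRNA than EPCAM+ cells, and 1.79-fold more Itga5 and 1.81-fold more Vcam1. These 4 of 8 genes were called at an adjusted p below 0.05 (limma on log2(units + 1), Benjamini-Hochberg over all genes tested), 2 higher and 2 lower, where 6.22% of all genes tested were called, 2.74% higher and 3.49% lower. The median log2 difference of the 8 genes was 0.14, against 0.06 over all genes tested. The labels give the replicate number as a batch, and the same 2 numbers occur in both fractions of every line. With that number as a block within each line, 6 of 8 genes were called, adding Itgav (higher) and Cd24a (lower), where 22.7% of all genes were called. In bulk RNA, fewer cells of a type and less RNA per cell cannot be told apart.

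Itgb6, the beta subunit of the epithelial latent TGF-beta activator, lies on the minus strand of chromosome 2 (GRCm38, chr2:60598292-60722643). In EPCAM+ libraries of day 8, replicates 1 and 2 had 1008 and 604 units in the control line, 578 and 469 in Pitx1KO, 452 and 303 in Klf5KO, 1218 and 724 in Nfatc1KO, and 353 and 381 in Creb3l1KO. In EPCAM- libraries they had 60 and 60, 59 and 55, 25 and 35, 36 and 80, and 44 and 37 in the same order of lines. No EPCAM- library came near the lowest EPCAM+ library, and each EPCAM- library was 8.02 to 33.8-fold below the EPCAM+ library of its line and replicate. In units, the 2 sets of 10 day 8 libraries did not overlap for Itgb6 and Vcam1, 2 of 8 genes, as for 0.787% of all genes tested. The gap for Vcam1 was narrow, from 62 to 65 units. The fitted log2 difference was -3.54 (SE 0.16, 95% interval -3.88 to -3.20, adjusted p = 6.6e-10 with limma). Within single lines Itgb6 was the only one of the 8 called in the fit without a block, at log2 differences of -3.68 in the control line, -3.17 in Pitx1KO, -3.60 in Klf5KO, -4.10 in Nfatc1KO and -3.15 in Creb3l1KO (limma adjusted p from 2.8e-05 to 0.00062). That count of 1 of 8 stands beside 0.644% of all genes called in the control line, 0.317% in Pitx1KO, 0.286% in Klf5KO, 0.429% in Nfatc1KO and 0.291% in Creb3l1KO. Fitted on the 4 libraries of a line alone, limma called 0 of 8 in Klf5KO and Nfatc1KO, where 0 genes in all were called (3 and 2 of 8 at an unadjusted p under 0.05, among 745 and 1399 genes). Limma-voom on all libraries called 1 of 8 in each, among 39 and 70 genes. Another beta subunit lower in EPCAM- cells was Itgb4, the hemidesmosome subunit that pairs with Itga6, which fell by 1.62 on the log2 scale and was lower in 10 of 10 pairs (limma adjusted p = 0.00020).

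The Itgb6 promoter windows are shown because Itgb6 had the largest difference of the 8 genes, and the Itga5 window because Itga5 had the most motif matches. They are the 250 bases before the start site, 5′ to 3′ on the gene's strand, from the RefSeq table of GRCm38.p6, which holds entries for 5 of the 8 genes. Capitals mark CACCTG, the E2-box bound by ZEB and SNAI repressors, in the Itgb6 windows, and GGAAA, the core of NFAT sites, on either strand in the Itga5 window. The first Itgb6 window is chr2:60722604-60722853, the second, before an internal start, chr2:60673694-60673943, and the Itga5 window chr15:103366792-103367041, all on the minus strand.
Itgb6 first start: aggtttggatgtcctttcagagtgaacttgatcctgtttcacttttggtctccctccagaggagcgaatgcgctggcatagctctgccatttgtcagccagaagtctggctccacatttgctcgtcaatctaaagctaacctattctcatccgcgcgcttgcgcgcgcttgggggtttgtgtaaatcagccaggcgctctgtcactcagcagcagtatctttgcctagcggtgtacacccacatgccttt
Itgb6 internal start: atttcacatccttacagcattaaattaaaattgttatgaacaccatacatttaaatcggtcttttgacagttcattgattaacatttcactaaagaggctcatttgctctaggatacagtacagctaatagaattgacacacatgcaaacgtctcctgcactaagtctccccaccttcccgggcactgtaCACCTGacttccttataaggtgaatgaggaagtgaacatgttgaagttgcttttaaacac
Itga5: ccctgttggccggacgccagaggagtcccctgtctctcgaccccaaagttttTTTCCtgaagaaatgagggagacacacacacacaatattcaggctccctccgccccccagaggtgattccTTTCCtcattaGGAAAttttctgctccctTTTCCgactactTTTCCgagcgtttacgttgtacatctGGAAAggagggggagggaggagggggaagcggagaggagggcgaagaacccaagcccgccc
CACCTG had 0 matches before the first Itgb6 start and 1 before the internal start, 60 bases upstream of it, and 17.2% of the 32851 mouse promoter windows of that length in the table hold it. The Itgav, Cd44, Itgb1 and Itga5 windows had 0 matches to it. GGAAA matched 6 times in the Itga5 window, 2 times in the Cd44 window, once in the Itgb1 window and not in the Itgb6 or Itgav windows, and 55.6% of all windows hold it. Windows with at least 6 matches made up 0.0639% of all windows, a share looked up after the Itga5 count was seen. CACCC, a core of KLF sites, matched 1 time before the first Itgb6 start, 1 time in the Itgav window and 2 times in the Itgb1 window, and 52.0% of windows hold it. GGAATG, a core of TEAD sites that can share letters with GGAAA, matched once, in the Itgb1 window, and 12.6% of windows hold it. The AP-1 motif TGANTCA and the PITX motif TAATCC matched in none of the 6 windows, and 6.75% and 6.25% of all windows hold them. All motifs were searched on both strands, and a match is a description of letters.

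**Figure D2:**
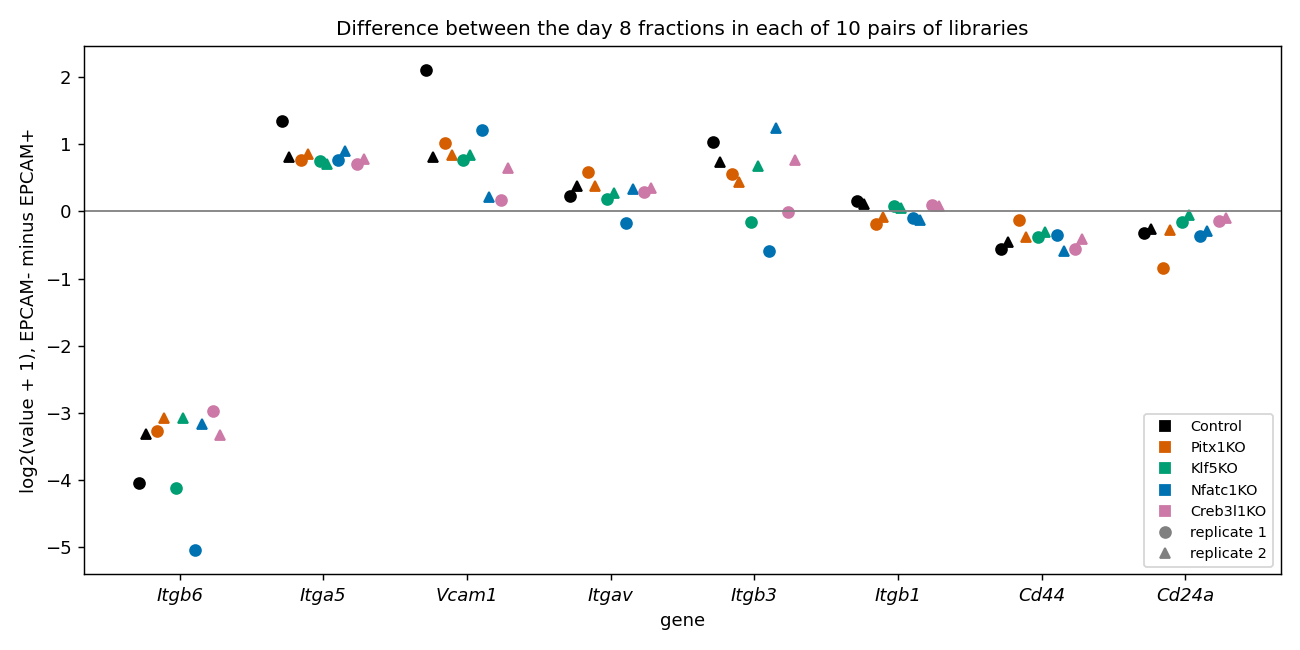
Difference in log2(units + 1) between the EPCAM- and the EPCAM+ library of the same line and replicate at day 8, with 10 pairs per gene, coloured by line. Itgb6, Cd44 and Cd24a lay below 0 in 10 of 10 pairs, and Itga5 and Vcam1 above 0 in 10 of 10.

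Itga5, the alpha subunit of the fibronectin receptor (chr15:103344286-103366763, minus strand), had 376 and 1075 units in control EPCAM+ cells of day 8, 697 and 1339 in Pitx1KO, 1321 and 1202 in Klf5KO, 1072 and 770 in Nfatc1KO, and 1827 and 1124 in Creb3l1KO. The EPCAM- libraries had 955 and 1878, 1188 and 2408, 2214 and 1956, 1827 and 1434, and 2978 and 1933. The fractions overlapped across lines, but within each pair the EPCAM- library was higher, by 1.63 to 2.54-fold in 10 of 10 pairs. Of the 8 genes 5 lay on 1 side in all 10 pairs, as did 9.03% of all genes tested (4.34% higher and 4.69% lower). The log2 difference was 0.84 (SE 0.22, 95% interval 0.38 to 1.29, limma adjusted p = 0.030, and 3.9e-10 with the block within each line). The call without the block was lost on leaving out any 1 of 10 libraries (adjusted p 0.052 to 0.078). In the control and Pitx1KO lines these were EPCAM+ replicate 1 and EPCAM- replicate 2, and in Klf5KO, Nfatc1KO and Creb3l1KO they were EPCAM- replicate 1 and EPCAM+ replicate 2. With the block within each line Itga5 was called higher in each of the 5 lines, at log2 differences from 0.72 in Klf5KO to 1.07 in the control line.

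Vcam1 (chr3:116109949-116129688, minus strand) was the lowest of the 8 genes. Its EPCAM+ libraries of day 8 had 16 and 52 units in the control line, 36 and 36 in Pitx1KO, 54 and 45 in Klf5KO, 44 and 57 in Nfatc1KO, and 62 and 47 in Creb3l1KO. The EPCAM- libraries had 72 and 92, 74 and 65, 92 and 81, 103 and 66, and 70 and 74. The highest EPCAM+ library, at 62 units, lay just under the lowest EPCAM- library, at 65. Before scaling, the recovered reads of the fractions overlapped (6 to 25 in EPCAM+ and 24 to 40 in EPCAM- libraries). The log2 difference was 0.86 (SE 0.23, 95% interval 0.38 to 1.34, limma adjusted p = 0.032, and 0.00077 with the block within each line), and 10 of 10 pairs were higher, by 1.13 to 4.50-fold. The pair ratio of 4.50 came from control replicate 1, whose EPCAM+ library had 16 units. The call without the block was lost on leaving out any 1 of 12 libraries (adjusted p 0.055 to 0.079). They were EPCAM+ replicate 1 of the control, Pitx1KO and Nfatc1KO lines, EPCAM+ replicate 2 of Pitx1KO, Klf5KO and Creb3l1KO, EPCAM- replicate 1 of the 4 knockout lines, and EPCAM- replicate 2 of the control and Creb3l1KO lines. A transcript of the opposite strand, Gm43109, overlaps Vcam1 exons and had 0 to 3 units in every library. How reads in the overlap were counted is not given in the sources used here.

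Vcam1 is also a gene of activated endothelium and stromal cells, so markers of other cell types were read in the same libraries. Of all genes tested, limma called 6.22% between the fractions, and 22.7% with the block within each line. The 5 endothelial markers summed to 69 to 203 units in EPCAM+ and 65 to 431 in EPCAM- libraries of day 8, with Pecam1 at 53 to 157, Kdr at 0 to 269, Cdh5 at most 31, Tek at most 5 and Emcn at most 3 in any library. Limma called 0 of the 3 tested, and with the block within each line Cdh5 rose (means of 5.6 units in EPCAM+ and 14 in EPCAM- libraries, adjusted p = 0.030). The median log2 difference of the 3 was 0.74. The 6 fibroblast markers summed to 140 to 864 units in EPCAM+ and 644 to 4980 in EPCAM- libraries. Of the 5 tested, Pdgfrb (log2 difference 3.43, limma adjusted p = 0.0027) and Col1a1 (2.33, adjusted p = 0.010) rose. Col3a1 (3.31) was called only with a block (limma adjusted p = 0.16 without, 2.1e-07 with the block within each line). Pdgfra (0.14) and Dcn (0.24) were called in neither fit. Dcn reached at most 61 and Lum at most 6 units in any library. The part of fibroblast or endothelial RNA in the Vcam1 and Itga5 differences was not tested. The 7 immune markers summed to 167 to 360 and 140 to 272 units, with Csf1r at 91 to 277 and Cd68 at 26 to 97, while Cd3e was at 0 in all 22 libraries and Ptprc at most 9. Of the 2 tested 0 were called by limma, and Csf1r fell with the block within each line (log2 difference -0.56, adjusted p = 0.00037).

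Cd44, the hyaluronan receptor (chr2:102811141-102901665, minus strand), was abundant in every library. EPCAM+ libraries of day 8 had 22706 and 26782 units in the control line, 27164 and 31428 in Pitx1KO, 28426 and 28516 in Klf5KO, 33288 and 24728 in Nfatc1KO, and 27314 and 28086 in Creb3l1KO. The EPCAM- libraries had 15448 and 19570, 24766 and 24070, 21864 and 23116, 25980 and 16422, and 18552 and 21201. The fractions overlapped only where high EPCAM- libraries met low EPCAM+ libraries of another line or replicate, and each EPCAM- library had 0.664 to 0.912 times the value of its EPCAM+ partner. The log2 difference was -0.41 (SE 0.09, 95% interval -0.59 to -0.23, limma adjusted p = 0.0070), and it was lower in 10 of 10 pairs. The counts sum all Cd44 transcripts, so they do not separate its splice forms. Among the 14 tested of 15 hyaluronan and Cd44 partner genes 0 rose and 2 fell, where 2.74% of all genes rose and 3.49% fell. The 2 that fell were epithelial splicing regulators: Esrp1 fell by 1.63 on the log2 scale (limma adjusted p = 5.1e-06) and Esrp2 by 1.34 (2.5e-06). With the block within each line, genes of this list were called in both directions.

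Cd24a (chr10:43578284-43584265, plus strand) was lower in EPCAM- cells in 10 of 10 pairs, but by little. EPCAM+ libraries of day 8 had 4748 and 5560 units in the control line, 6223 and 5682 in Pitx1KO, 4153 and 5188 in Klf5KO, 4267 and 5893 in Nfatc1KO, and 5262 and 5276 in Creb3l1KO. EPCAM- libraries had 3802 and 4646, 3473 and 4679, 3734 and 5000, 3323 and 4820, and 4755 and 4933. The ranges overlapped, 3323 to 5000 units against 4153 to 6223. The log2 difference of -0.28 (SE 0.10, 95% interval -0.48 to -0.08) was not called by limma (adjusted p = 0.10), was called with the replicate block (0.014) and was called with the block within each line (0.00029). Leaving out Nfatc1KO EPCAM- replicate 2 also brought it under the threshold (adjusted p = 0.048). The log2 difference in Pitx1KO was -0.56, called only with the block within the line (adjusted p = 0.0039).

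**Figure D3:**
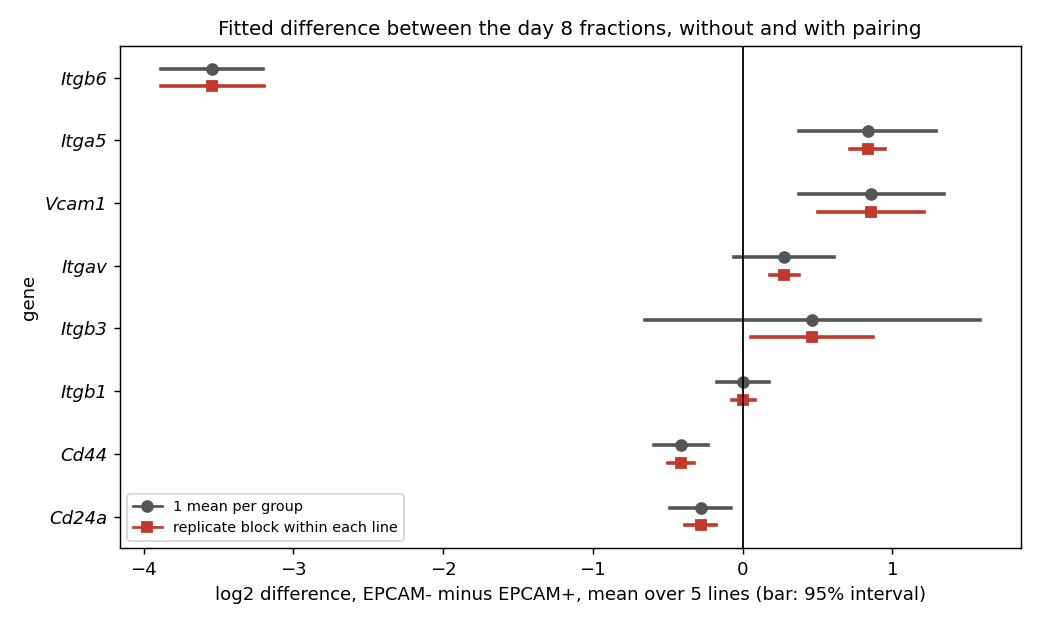
Fitted log2 difference between EPCAM- and EPCAM+ cells at day 8, averaged over the 5 lines, with bars for the 95% interval from the fit with 1 mean per group (grey) and from the fit with the replicate block within each line (red). The estimates are the same in both fits, and the interval for Itga5 narrowed from 0.38 to 1.29 down to 0.72 to 0.95.

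Itgav, the shared alpha-v subunit (chr2:83724397-83806916, plus strand), had 8802 and 16434 units in control EPCAM+ cells of day 8, 12520 and 15800 in Pitx1KO, 22359 and 18298 in Klf5KO, 22739 and 13897 in Nfatc1KO, and 18472 and 13770 in Creb3l1KO. EPCAM- libraries had 10333 and 21324, 18703 and 20436, 25336 and 22051, 20066 and 17453, and 22616 and 17424. The fractions overlapped widely, while 9 of 10 pairs were higher in EPCAM- cells and Nfatc1KO replicate 1 was the exception. The log2 difference of 0.28 (SE 0.16, 95% interval -0.06 to 0.61) was not called by limma (adjusted p = 0.36) and was called with the block within each line (0.00013). A transcript of the opposite strand, Gm13684, overlaps Itgav exons and had 37 to 140 units in EPCAM+ and 77 to 296 in EPCAM- libraries. How reads in that overlap were counted is likewise not given.

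Itgb1, the beta subunit shared by many integrins (chr8:128685654-128733200, plus strand), did not pass the test, with a log2 difference of 0.00 (95% interval -0.17 to 0.18, limma adjusted p = 0.99). Its day 8 libraries had 16533 to 26904 units in EPCAM+ and 18326 to 28261 in EPCAM- cells, with medians of 23702 and 23762, and 6 of 10 pairs were higher in EPCAM- cells. Of the beta subunits known to pair with Itgav, Itgb1 made up 85.2 to 93.2% of the day 8 mRNA per kb in both fractions together. Itgb5 made up 5.47 to 11.7%, with medians of 7.08% in EPCAM+ and 9.70% in EPCAM- libraries. Those shares describe mRNA, not assembled receptors. In units, Itgb5 was higher in EPCAM- cells in 9 of 10 pairs. Its log2 difference was 0.42 (limma adjusted p = 0.13, and 7.8e-06 with the block within each line).

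Itgb3, the beta subunit of the vitronectin receptor (chr11:104608000-104670476, plus strand), varied most of the 8 genes between the libraries of a group, by 1.49 to 7.93-fold with a median of 3.16-fold over the 11 groups. EPCAM+ libraries of day 8 had 102 and 396 units in the control line, 42 and 333 in Pitx1KO, 802 and 294 in Klf5KO, 1127 and 199 in Nfatc1KO, and 1382 and 324 in Creb3l1KO. EPCAM- libraries had 209 and 661, 62 and 450, 720 and 470, 747 and 471, and 1369 and 548. Replicate 1 was the lower library in the control and Pitx1KO lines and the higher one in Klf5KO, Nfatc1KO and Creb3l1KO, in both fractions of all 5 lines. At day 8, replicate 1 libraries spanned 42 to 1382 units in EPCAM+ cells and 62 to 1369 in EPCAM- cells, while replicate 2 libraries spanned 199 to 396 and 450 to 661. The same agreement of both fractions on which replicate was higher held in 5 of 5 lines for Itga5, Itgav and Itgb1, in 4 for Cd44 and Cd24a, in 2 for Vcam1 and in 1 for Itgb6. The log2 difference between fractions of 0.47 (SE 0.52, 95% interval -0.65 to 1.58) was not called by limma (adjusted p = 0.70, and 0.10 with the block within each line), and 7 of 10 pairs were higher in EPCAM- cells. Platelets carry much Itgb3, and the 4 platelet markers summed to 63 to 166 units in EPCAM+ and 109 to 250 in EPCAM- libraries, with Gp1bb at 24 to 181, Itga2b at 19 to 91, Ppbp at most 57 and Pf4 at most 4. With the block within each line Gp1bb rose (log2 difference 0.80, limma adjusted p = 0.00032) and Ppbp fell (-1.44, adjusted p = 0.012), and their part in the Itgb3 values was not tested.

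Itgb6 and Itgb3, which both pair with the alpha-v subunit, were then set against each other. Per kb of exon, the ratio of Itgb6 to Itgb3 mRNA was 11.3 and 20.6 in the control libraries of day 0, 0.212 to 11.4 (median 1.07) in EPCAM+ libraries of day 8, and 0.0267 to 0.790 (median 0.0686) in EPCAM- libraries. Itgb6 exceeded Itgb3 in 2 of 2 libraries of day 0, in 5 of 10 EPCAM+ libraries of day 8 and in 0 of 10 EPCAM- libraries. That tally rests on the length used: per kb of the longest transcript, an alternative added after the data were seen, it was 2 of 2, 8 of 10 and 1 of 10 (Pitx1KO EPCAM- replicate 1), with median ratios of 23.1, 1.56 and 0.0994. Of these genes Itgb6 was called between the fractions and Itgb3 was not. Itgb8 stayed at 0 to 29 units in every library.

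**Figure D4:**
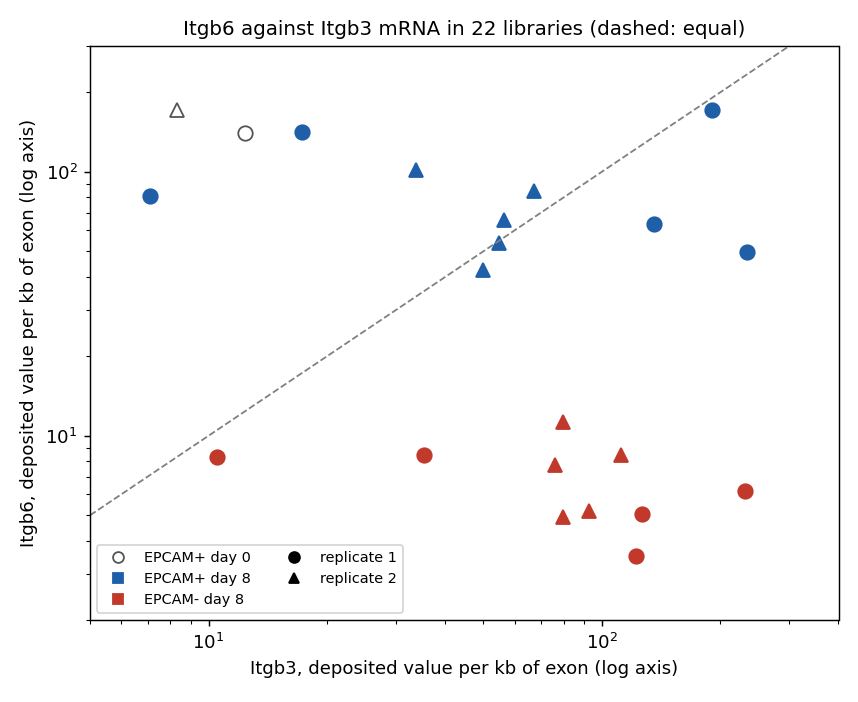
Itgb6 against Itgb3 in units per kb of exon (both log axes) for the 22 libraries, with a dashed line where they are equal. The 10 EPCAM- libraries lie below the line at 3.52 to 11.3 units per kb of Itgb6 (per kb of the longest transcript 1 of 10 was above it), and the 10 EPCAM+ libraries of day 8 lie on both sides at 42.6 to 171.

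Within single lines, the block within each line added calls beside Itgb6. It called 4 of 8 genes in the control line (7.01% of all genes), with Itga5 and Vcam1 higher and Cd44 lower, and 4 of 8 in Pitx1KO (4.79%), with Itga5 and Itgav higher and Cd24a lower. It called 2 of 8 in Klf5KO (2.19%), with Itga5 higher, and 3 of 8 in Nfatc1KO (6.08%) and in Creb3l1KO (3.19%), with Itga5 higher and Cd44 lower. The fraction difference of a knockout line was then tested against that of the control line. With the block within each line, limma called 0 of 8 genes in each of the 4 interactions. In that fit 17 genes in all were called in Pitx1KO, 3 in Klf5KO, and 0 in Nfatc1KO and Creb3l1KO. Without the block limma also called 0 of 8 in each, where 0% of all genes were called. There 0 of 8 reached an unadjusted p under 0.05, among 365 genes in Pitx1KO, 268 in Klf5KO, 374 in Nfatc1KO and 222 in Creb3l1KO. Limma-voom on the recovered reads called 0 of 8. The 95% interval of the interaction for Itgb6 ran from -0.57 to 1.59 on the log2 scale in Pitx1KO, from -0.999 to 1.16 in Klf5KO, from -1.50 to 0.65 in Nfatc1KO and from -0.55 to 1.60 in Creb3l1KO, and a missed threshold does not show that the lines act alike.

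The knockout lines were also compared with the control line within each fraction, and these 8 comparisons share the control libraries. Limma and limma-voom called 0 of the 8 genes in every one. The share of all genes called by limma was 0.409% in Pitx1KO EPCAM+ cells, 0.915% in Pitx1KO EPCAM-, 0.0511% in Klf5KO EPCAM+, 0.153% in Klf5KO EPCAM-, 0% in both Nfatc1KO fractions, 0.194% in Creb3l1KO EPCAM+ and 0.261% in Creb3l1KO EPCAM-. At an unadjusted p under 0.05 there were 3 of 8 in Klf5KO EPCAM+ (1369 of 19569 genes in all) and 2 in Creb3l1KO EPCAM+ (1172 genes). There was 1 in Pitx1KO EPCAM- (2052 genes) and 1 in Klf5KO EPCAM- (1118 genes). The other 4 comparisons had 0, among 2022 genes in Pitx1KO EPCAM+, 1467 and 734 in Nfatc1KO EPCAM+ and EPCAM-, and 1180 in Creb3l1KO EPCAM-.

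Itgb6 values lay below control in 3 of the 4 lines, without a call. In EPCAM+ cells the 2 libraries of Pitx1KO, Klf5KO and Creb3l1KO (303 to 578 units) lay below both control libraries (604 and 1008). In EPCAM- cells their libraries (25 to 59) lay below the control value of 60. For Pitx1KO that gap was not seen in recovered reads, which overlapped (21 to 24, against 21 to 26 in control). The log2 differences in EPCAM+ cells were -0.58 in Pitx1KO, -1.07 in Klf5KO and -1.09 in Creb3l1KO, with limma adjusted p of 0.64, 0.59 and 0.55. Both libraries of Klf5KO lay above both control libraries for Itgav, Itga5, Itgb1 and Cd44 in each fraction, with log2 differences in EPCAM+ cells of 0.75, 0.99, 0.41 and 0.21 (adjusted p 0.70 to 0.86). Libraries of 2 against 2 that do not overlap in units were common. They made up 33.8% of all genes in Klf5KO EPCAM+ and 30.5% in Klf5KO EPCAM- cells, where 5 of 8 genes were apart in each, and 37.2% and 36% in Pitx1KO, where 3 and 2 of 8 were apart. In Creb3l1KO the shares were 32.2% and 31% with 3 of 8 apart in each fraction, and in Nfatc1KO 32.2% and 29.1% with 0 of 8 apart.

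From day 0 to day 8, EPCAM+ control cells showed 0 of 8 genes called by limma and by limma-voom, where 0% of all genes were called. At an unadjusted p under 0.05 there was 1 of 8, among 831 of 19569 genes in all. That gene was Cd44, with 17826 and 16154 units at day 0 and 22706 and 26782 at day 8 (log2 difference 0.54, adjusted p = 1). Day 0 EPCAM+ cells had the lowest group mean of the 11 groups for Itgav, Itgb3, Itga5, Itgb1 and Cd44, and the highest for Itgb6. Against day 8 EPCAM- control cells, 1 of 8 genes was called, Itgb6, where 2.01% of all genes were. Day 0 had no EPCAM- libraries, so day and sorted fraction cannot be told apart in this comparison. Itgb6 had 998 and 1215 units at day 0 and 60 and 60 in EPCAM- cells (log2 difference -4.18, SE 0.36, limma adjusted p = 1.5e-05). Itga5 had 407 and 495 units at day 0 and 955 and 1878 in EPCAM- cells (log2 difference 1.58, adjusted p = 0.12). Itgb3 had 73 and 49 at day 0 and 209 and 661 in EPCAM- cells (2.62, adjusted p = 0.33).

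In the order of the 11 group means in units, few neighbours stood apart. For Itgb6 the ranges of 5 of 10 neighbouring groups did not overlap. Its order ran from day 0 (mean 1107 units, SD 153, n = 2) through Nfatc1KO (971, SD 349) and control (806, SD 286) EPCAM+ cells to Klf5KO EPCAM- cells (30.0, SD 7.07). The gap between Creb3l1KO and Klf5KO EPCAM- cells was not seen in recovered reads (15 to 17 against 10 to 15). For Cd44, 3 of 10 neighbours were apart, for Itgb1, Vcam1 and Cd24a 1 of 10 each, and for Itgav, Itgb3 and Itga5 0 of 10. Vcam1's gap lay between the lowest EPCAM- group, Pitx1KO (69.5, SD 6.36), and the highest EPCAM+ group, Creb3l1KO (54.5, SD 10.6).

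Other genes of the adhesion system were read from lists written for this tissue. In the fit without a block, 2.74% of all genes tested were called higher in EPCAM- cells and 3.49% lower. Among the other integrin alpha subunits, 9 of 16 were tested and 1 rose in EPCAM- cells, the collagen-binding Itga11 (medians of 26.0 units in EPCAM+ and 87.5 in EPCAM- libraries, log2 difference 1.65, limma adjusted p = 0.042), and 0 fell. Of the 5 other beta subunits 0 rose and Itgb4 alone fell. Only with the block within each line were Itgb5 (log2 difference 0.42) and Itgb7 (0.89) called higher and Itgb2 (-0.72) lower. Of 14 tested of 16 integrin ligands, Postn (periostin) rose (2.66, adjusted p = 0.010) and Npnt (nephronectin) fell by 1.24 on the log2 scale (0.039). Of 21 adaptors and focal adhesion genes 3 rose and 0 fell: Tns1, a tensin (1.07, adjusted p = 0.018), Tln2, a talin (0.71, adjusted p = 0.0014), and Parva, parvin alpha (0.31, adjusted p = 0.0023). Of the immunoglobulin-family molecules related to Vcam1, 16 of 20 were tested, and Ncam1 rose (0.91, adjusted p = 0.013) while L1cam, Icam1 and Cadm4 fell, L1cam by 1.81 on the log2 scale (8.7e-06). Of 11 tested of 13 other surface markers, Nrp1, a semaphorin and VEGF co-receptor, rose (1.10, adjusted p = 0.00025), and Ly6a, known as Sca-1, and Cd9, a tetraspanin, fell by 0.90 and 0.40 (adjusted p = 0.0017 and 0.020). The median log2 difference was -0.22 for the alpha list, -0.64 for the beta list, 0.18 for ligands, 0.18 for adaptors, 0.03 for Cd44 partners, -0.08 for the immunoglobulin family and -0.03 for other surface markers, against 0.06 over all genes tested. The beta median was that of Itgb8, which was not called (limma adjusted p = 0.61) and had 0 to 29 units. More list genes were called with the block within each line, where 22.7% of all genes were. It called 2 higher and 3 lower among the alpha subunits, 2 and 2 among the beta subunits, 5 and 1 among the ligands, 10 and 2 among the adaptors, 3 and 3 among the Cd44 partners, 3 and 6 in the immunoglobulin family, and 2 and 3 among the other surface markers.

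The genes whose log2 levels ran most like those of each member were found by Pearson correlation over the 22 libraries, among 10639 genes, as a description. These libraries share lines, fractions and batches. Genes like Itgb6 included Epn3 (r = 0.97) and Erbb3 (0.96). Within the fractions of day 8 the r of Epn3 was 0.58 in EPCAM+ and 0.59 in EPCAM- libraries, and that of Erbb3 was 0.62 and 0.46. Itga5 was most like Adamts7 (0.95), Col16a1 (0.94) and Adamts6 (0.94), and Itgav like St5 (0.97), Plod2 (0.94) and Aplp2 (0.93). For Itgav and St5 the r within the fractions was 0.99 in EPCAM+ and 0.93 in EPCAM- libraries. Itgb3 was most like Slc4a7 (0.92), Pgf (0.92) and Gsto1 (0.91), and Itgb1 like Sdc3 (0.95), Aplp2 (0.91) and Clic1 (0.91). Cd44 was most like Ptbp3 (0.88), Cd24a like Chml (0.91) and Vcam1 like Glipr2 (0.87). Within the EPCAM+ and the EPCAM- libraries of day 8 these were 0.54 and 0.79 for Cd44, 0.87 and 0.91 for Cd24a, and 0.74 and 0.53 for Vcam1.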

How the data were processed

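Bulk RNA-seq libraries were made with the Ovation Solo kit from RNA of sorted cells and sequenced in paired ends, per the labels' protocols. FastQC, Trimmomatic, STAR, Picard, HTSeq and GRCm38/mm10 are named, without versions or roles, per the submitters' processing notes. The deposited value is a score: read counts per gene scaled to a common total per library and rounded up, as judged from its steps (99.8 to 99.9% of values lie on them). The scaling formula and the use of strand are not given in the sources used here.

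Groups came from the labels. Genes with at least 10 units in at least 2 libraries (19569) were fitted on log2(value + 1) over all 22 libraries with limma 3.58.1 in R 4.3.3 (trend, robust prior), 1 mean per group, 20 contrasts, Benjamini-Hochberg within each, threshold 0.05. The replicate number is the labels' batch. Replicate differences correlated over 0.1 in 36 of 55 pairs of groups (median 0.146) and by 0.171 to 0.381 between the fractions of each line, so a block was fitted too, common to all lines or within each line (day 8 only, 5 residual degrees of freedom). Other alternatives were fits on the compared groups alone, a pseudocount of 10, no filter, median-of-ratios scaling, limma-voom on recovered reads, and leaving out each library. Intervals cover the spread between libraries only. Lengths are exon unions of GENCODE M21 (GRCm38), which held 99.3% of gene identifiers. The script was tested on simulated data.

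The members and lists were chosen with earlier results of these data known. Genes named beside the 8 are the called list genes by size of difference (up to 4 per list, higher mean at least 50 units) and the 3 genes most like each member (mean at least 50 units), of which not every one is reported here. Python 3.11.15, numpy 2.4.6, pandas 2.3.3 and matplotlib 3.10.9 prepared values and figures.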

Additional observations from a re-analysis of the deposited data

How the results depend on the processing

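In the mean comparison of fractions Itgb6 and Cd44 kept their calls in every alternative run, and Vcam1 in all but 12 left-out libraries. Without the filter on low values the Itga5 difference of 0.84 missed the threshold (adjusted p = 0.060). Cd24a (-0.28) was called with the replicate block and with the block within each line, and Itgav (0.28) with the latter. Itgb1 turned sign to -0.025 with median-of-ratios scaling. Leaving out 1 library at a time, the log2 difference ranged from 0.17 to 0.38 for Itgav, from 0.17 to 0.76 for Itgb3, from 0.68 to 0.99 for Itga5, from 0.70 to 1.02 for Vcam1, from -0.33 to -0.23 for Cd24a and from -0.051 to 0.059 for Itgb1, and 2 to 5 of 8 members were called, among 837 to 1363 genes. Leaving out 1 pair of libraries at a time with the replicate block within each line, an alternative added after seeing the data, 6 to 7 members were called, among 3265 to 4237 genes, and the ranges were 0.23 to 0.33 for Itgav, 0.28 to 0.65 for Itgb3 (called without Nfatc1KO replicate 1, adjusted p = 0.00014), -0.34 to -0.22 for Cd24a and -0.0053 to 0.014 for Itgb1.

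With the replicate block, 1973 genes were called in the mean comparison against 1218 without, and with the block within each line 4450. Within the control, Pitx1KO, Klf5KO, Nfatc1KO and Creb3l1KO lines the counts were 126, 62, 56, 84 and 57 genes, and 1372, 937, 429, 1189 and 625 with the block within each line. On the compared groups alone they were 14, 8, 0, 0 and 23. Members called within lines went from 1 each to 4, 4, 2, 3 and 3 with the block within each line. On the compared groups alone they were 0 in Klf5KO and Nfatc1KO. Outside the mean comparison 141 of 736 member differences changed sign on leaving out 1 library and 3 of 984 under the other alternatives, none of them called in either fit.

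Each group held 2 libraries, and Vcam1 rested on 6 to 40 reads per library, which limits its precision.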
